A study of Mus musculus with 3 samples.

Results

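Accessible chromatin was described around 10 genes that mark resting fibroblast progenitors: Pi16, Dpp4, Dpt, Clec3b, Ly6a, Thy1, Cd248, Abca8a, Abca8b and Gli1. A peak summit counted for one of them where no other protein-coding gene, among 20665 on the 19 autosomes, had an end nearer to it, and where that end was at most 50 kb away. In this way the 10 genes held 63 of the 67237 accessible regions found, and 51406 regions in all had a gene end within that distance. The genes were put together with earlier results of these data known, and summit positions set their regions, so every value below is a description and no test is given.

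The data came from ATAC-seq, in which a transposase cuts and tags open DNA, on mouse cells labelled mesenchymal stem cells, in a series on heterotopic ossification, the growth of bone in soft tissue. One library was made per group: cells immobilized at day 7 after injury, cells non-immobilized at day 7 after injury, and cells taken at day 0 before injury. The labels attach immobilization to the cells and give no strain, genotype, age, number of animals, injury model or method of cell isolation, so these limits on the groups as models are unknown here. The libraries held 143818952, 173029378 and 176119937 read pairs, and the deposited lists held 67404, 47912 and 51722 summits for day 7 immobilized, day 7 non-immobilized and day 0. With 1 library per group there is no replicate check, and every interval given is a 95% binomial one (exact, Clopper-Pearson) for counting error alone. The intervals treat regions as separate draws, though many lie near the same gene, so they are description and no test.

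Fibroblasts that carry Pi16, Dpp4 and Dpt form a resting pool in the connective tissue of many mouse organs, from which more specialised fibroblasts are thought to arise. Pi16 encodes a peptidase inhibitor and Dpp4 the surface protease CD26. Dpt (dermatopontin) and Clec3b (tetranectin) are secreted proteins of the matrix and its turnover. Ly6a (Sca-1), Thy1 (CD90) and Cd248 (endosialin) are surface proteins used to sort mesenchymal cells, although endothelial and blood cells can also carry Ly6a, and T cells and neurons Thy1. Abca8a and Abca8b are neighbouring lipid transporters of the ATP-binding cassette family. Gli1 is a transcription factor and target of hedgehog signalling and marks mesenchymal progenitors around vessels.

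Around these genes, accessible regions were most numerous before injury when each list was cut to equal length. For a comparison at equal length, each list was reduced to its 47912 best-scoring summits. Windows of 250 bp on each side of a summit were merged over the 3 libraries. A region counted as called wherever 1 or more summits of the library fell in it, and absence from a list does not show that the chromatin was closed. The 10 genes had 31 regions at day 7 immobilized, 27 at day 7 non-immobilized and 51 at day 0. Over all genes, the numbers in this order were 37438, 36883 and 36177. Of the members' 51 at day 0, immobilized cells had 23 again, non-immobilized cells had 22, and 27 were called in at least 1 of the 2 libraries. Over all genes, 75.9% of day 0 regions were called again at day 7 immobilized, 75.6% at day 7 non-immobilized and 17.3% in neither. The members' counts hold for lists of equal length and move with it, as given below. In the lists as deposited, the 10 genes had 48, 26 and 50 regions and 53, 30 and 51 summits, in the same order. In such bulk libraries, fewer cells of a type and less accessibility per cell cannot be told apart.

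Promoter sequence was at hand for 5 of the 10 genes, and is printed for the 3 whose 300 bases around the transcription start held a summit: Dpt, Abca8b and Abca8a. They are shown because the start of each behaved differently across the libraries. Each runs 5′ to 3′ on the gene's strand, from 250 bases before the start to 50 after, and comes from RefSeq (GRCm38.p6, the assembly of mm10), at chr1:164796413-164796712 on the plus strand for Dpt, and on the minus strand at chr11:109995796-109996095 for Abca8b and chr11:110095888-110096187 for Abca8a. Capitals mark matches to the letters searched.
Dpt: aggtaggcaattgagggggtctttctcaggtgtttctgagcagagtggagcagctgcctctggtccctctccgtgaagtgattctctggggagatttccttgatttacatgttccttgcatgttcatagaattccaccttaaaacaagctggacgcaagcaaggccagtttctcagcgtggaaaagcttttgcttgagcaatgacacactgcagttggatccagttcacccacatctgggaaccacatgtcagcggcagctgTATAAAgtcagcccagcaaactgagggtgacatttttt
Abca8b: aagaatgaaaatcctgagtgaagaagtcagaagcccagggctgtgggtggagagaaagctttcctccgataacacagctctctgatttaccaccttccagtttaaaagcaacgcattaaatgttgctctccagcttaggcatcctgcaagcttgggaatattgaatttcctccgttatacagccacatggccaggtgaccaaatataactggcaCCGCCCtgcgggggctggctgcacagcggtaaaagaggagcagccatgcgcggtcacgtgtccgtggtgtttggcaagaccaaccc
Abca8a: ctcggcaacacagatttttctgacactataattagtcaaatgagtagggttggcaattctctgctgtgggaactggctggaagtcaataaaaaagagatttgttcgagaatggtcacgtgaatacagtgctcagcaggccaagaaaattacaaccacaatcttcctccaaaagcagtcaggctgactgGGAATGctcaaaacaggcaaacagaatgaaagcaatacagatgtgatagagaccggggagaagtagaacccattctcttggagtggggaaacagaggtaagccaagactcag

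Letters of known motifs were searched on both strands. For the AP-1 family they were TGACTCA. For the TEAD factors, which work with YAP and TAZ, they were GGAATG. For the GLI factors of the hedgehog pathway they were GACCACCCA. For the GC box, read by factors of the Sp family, they were GGGCGG. The CCAAT box was searched by its own letters. For the TATA box, which places the start of transcription, they were TATAAA. No overlap between matches occurred in these sequences. Dpt held the TATA box letters 12 bases after the start. Abca8b held those of the GC box, read on the other strand, at position -36 from the start, and Abca8a held those of TEAD at -62. Of the other promoters at hand, Dpp4 held the TATA box and TEAD letters, and Pi16 held CCAAT. Among 32851 promoters of the same length, the TATA box letters were present in 13.6%, the GC box in 35.7%, the TEAD letters in 14.7%, CCAAT in 37.4%, the AP-1 letters in 5.20% and the GLI letters in 0.253%. Neither the AP-1 nor the GLI letters were in the windows of the 5 genes, which says nothing about binding by those factors. The Abca8b promoter held 10 CpG dinucleotides, and those of Dpt and Abca8a held 4 each, with a median of 7 over all promoters. Aligned end to end, the Abca8b and Abca8a promoters were identical in 45.9% of columns, inside the range of 42.7% to 48.5% over all pairs of the 5.

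The first comparison set day 7 immobilized against day 0. Day 7 immobilized alone held 8 of 59 member regions (13.6%), day 0 alone held 28 (47.5%), and 23 were in both. Over all regions near genes, 21.6% were called only at day 7 immobilized and 18.9% only at day 0. Abca8b had 7 regions called at day 0 and not at day 7 immobilized, Dpt had 6, and Abca8a and Clec3b had 4 each, and none of these genes had 1 the other way. Thy1 leaned the other way, with 4 regions in immobilized cells alone and 2 in day 0 cells alone. In all, 1 of the 10 genes had more regions at day 7 immobilized, 5 had more at day 0 and 4 had equal numbers. Here and below, no such split is given over all genes, so these counts of genes have no background beside them.

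The second comparison set day 7 non-immobilized against the same day 0 library, so the 2 comparisons share it and are not independent. Day 7 non-immobilized alone held 5 of 56 member regions (8.93%), day 0 alone held 29 (51.8%), and 22 were in both. The shares over all regions near genes were 20.8% and 19.3%. Pi16 had its single region at day 7 non-immobilized, 7 genes had more regions at day 0, and Cd248 and Gli1 had equal numbers.

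The share of day 0 regions kept was smaller around the 10 genes than over all genes. Of the 51 day 0 regions, 23 were called in immobilized cells at day 7 (45.1%, 31.1 to 59.7) and 22 in non-immobilized cells at day 7 (43.1%, 29.3 to 57.8). Put the other way, 54.9% were absent at day 7 immobilized, where the background over all genes was 24.1%, and 56.9% were absent at day 7 non-immobilized, where it was 24.4%. Regions absent from both day 7 libraries numbered 24 (47.1%), with a background of 17.3%. The map of positions shows such regions inside the genes and beyond their ends.

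**Figure D1:**
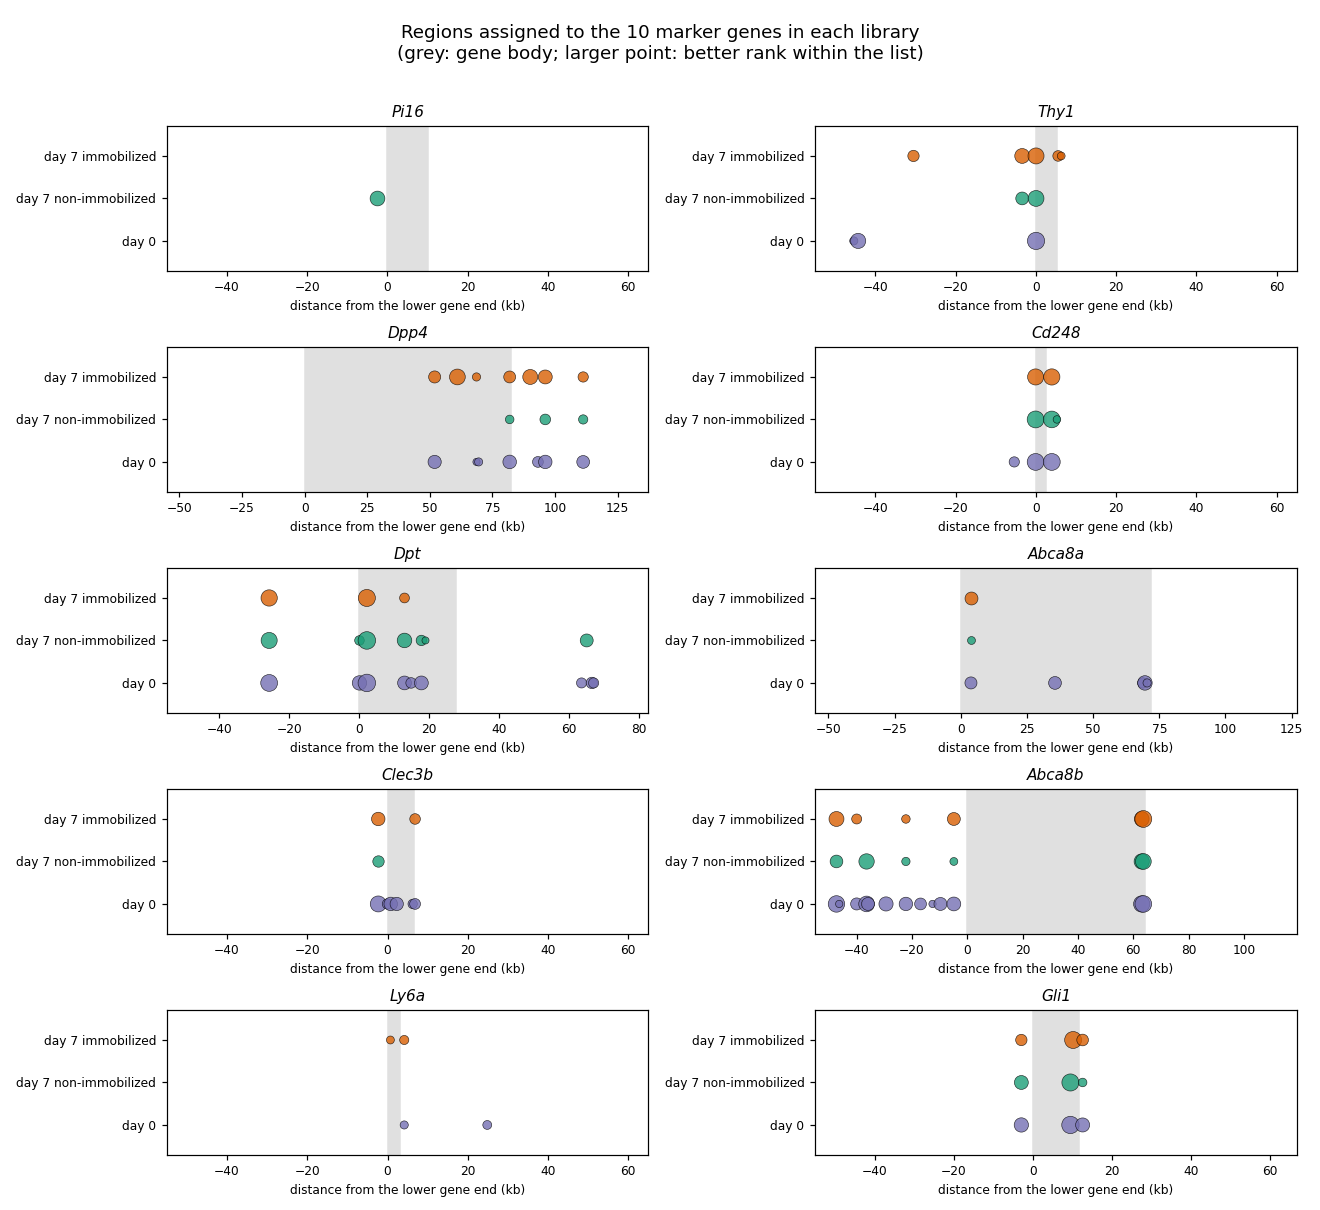
Regions assigned to each of the 10 genes, as distance in kb from the gene's lower-coordinate end (grey: gene body), in rows for day 7 immobilized, day 7 non-immobilized and day 0; larger points have better ranks. Abca8b had 13 regions at day 0, of which 11 lay beyond its lower end, and 6 in each day 7 library.

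Over all genes, weaker regions were kept less often, and the members' day 0 regions were weaker than average: their median rank was 27717, where 1 is best, against 21003 for all genes. Retention was therefore also read within 3 equal bands of the day 0 list. In the top band (ranks 1 to 15970), 9 of 10 member regions were kept at day 7 immobilized and 10 of 10 at day 7 non-immobilized, and over all genes 98.3% and 98.6% were. The region not kept lay inside Gli1, where the immobilized library had a region of rank 9814 that began 181 bp further on. In the middle band, 9 of 20 (45%, 23.1 to 68.5) and 11 of 20 (55%, 31.5 to 76.9) were kept, with 78.1% and 75.9% over all genes. In the bottom band, 5 of 21 (23.8%, 8.22 to 47.2) and 1 of 21 (4.76%, 0.120 to 23.8) were kept, with 42.5% and 43.6% over all genes. The share over all genes lay inside the members' interval for non-immobilized cells in the middle band and for immobilized cells in the bottom band, and outside it in the other 2 of these 4 cases. No test is drawn from this, since regions cluster by gene: of the 51 day 0 regions, Abca8b held 13 and Dpt 9. Had each band kept the share of all genes, 67.4% and 67.0% of the member regions would have been called at day 7 immobilized and non-immobilized.

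**Figure D2:**
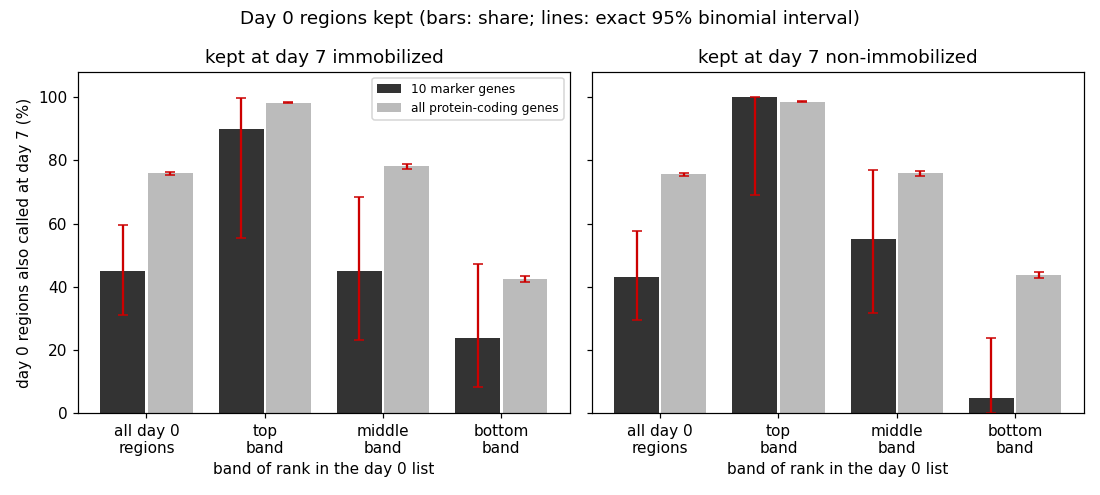
Percentage of day 0 regions also called in each day 7 library, for the 10 genes (dark) and all protein-coding genes (light), over all ranks and in 3 bands of the day 0 list; lines are exact 95% binomial intervals. In the top band 9 of 10 member regions were kept in immobilized and 10 of 10 in non-immobilized cells, and in the bottom band 5 of 21 and 1 of 21 were. The top-band region not kept lay in Gli1, 181 bp from a strong region of immobilized cells.

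The immobilized count depended on how far down its list was read. Of the 28 day 0 regions absent from its best 47912 summits, 13 were met by weaker summits of the deposited list, at ranks from 51134.5 to 65484.5 of 67404. A weaker summit met a region where its own window overlapped it, and in 12 of the 13 the summit itself lay in the region. Read against the whole deposited list, day 7 immobilized kept 36 of 51 (70.6%, 56.2 to 82.5), with 85.0% over all genes. At equal length these shares were 45.1% and 75.9%. The non-immobilized list has no such remainder, since it is the shortest and was used whole. The part that list depth has in this difference was not tested.

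The third comparison set day 7 immobilized against day 7 non-immobilized. Immobilized cells alone held 12 of 39 member regions (30.8%), non-immobilized cells alone held 8 (20.5%) and 19 were shared. Over all regions near genes, 18.3% and 17.1% were called in only 1 of the 2. Of the regions in 1 library only, 60% (36.1 to 80.9) were in the immobilized one, an interval that includes equal shares. The differences lay in different genes: Dpp4 and Thy1 had 4 and 3 regions at day 7 immobilized alone and 0 at day 7 non-immobilized alone, while Dpt had 0 and 4. In the deposited lists Dpt had 2 and 2, so its lean rests on the reduced list, and Dpp4 and Thy1 had 5 and 0, and 6 and 0. The deposited immobilized list is the longer, and Clec3b and Abca8b then had 4 and 0 each, and Ly6a 3 and 0.

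**Figure D3:**
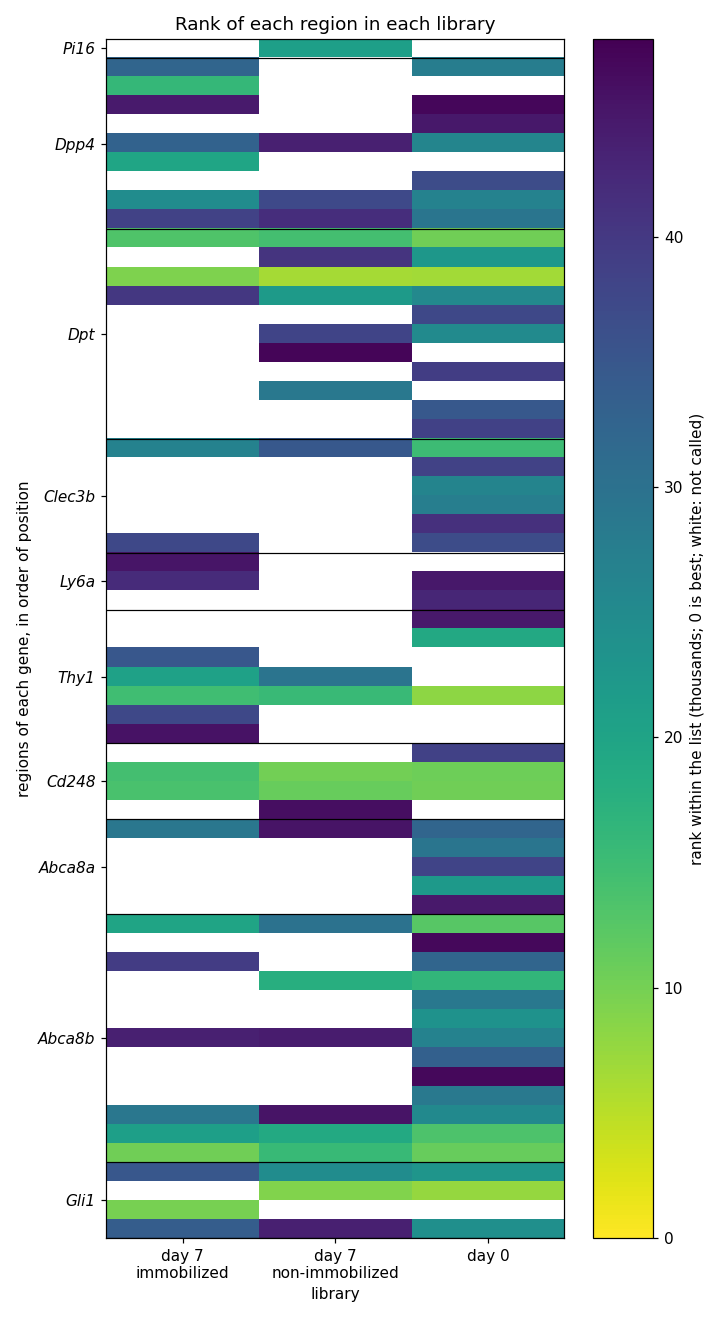
Rank of each of the 63 regions (rows, grouped by gene and ordered by position) in day 7 immobilized, day 7 non-immobilized and day 0; colour gives the rank within each list of 47912, and white means not called. The day 0 column is filled for all regions of Clec3b, Abca8a and Abca8b.

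Pi16, the gene for which the resting pool is often named (gene ID 74116, chromosome 17, 29318796 to 29328903, plus strand), was assigned no summit of the deposited day 0 list. Its single region was called at day 7 non-immobilized at rank 20822, 2554 bp below the gene's lower end, at position -2640 from the transcription start. In the weaker remainder of the immobilized list a summit at position -2651 had rank 65516 and another at -3023 had rank 57475. Pi16 was the only one of the 10 genes with 0 day 0 regions. Genes without a region were common, since 15125 of the 20665 protein-coding genes had one in any library.

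Dpp4 (gene ID 13482, chromosome 2, 62330073 to 62412315, minus strand) had 7 regions at day 7 immobilized, 3 at day 7 non-immobilized and 7 at day 0. The region 284 bp after its start was in all libraries, at ranks 32860.5, 43622 and 26109. The others in all libraries lay 13.8 kb and 29.0 kb beyond the upper end of the gene. Immobilized cells thus kept 5 of 7 day 0 regions and non-immobilized cells 3 of 7. Regions 21.2 kb inside and 7.85 kb beyond the upper end appeared at day 7 immobilized alone, at ranks 15944.5 and 19788.5, the best ranks of Dpp4 in that library. No deposited summit of either other library lay there.

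Dpt, a collagen-binding matrix protein (gene ID 56429, chromosome 1, 164796663 to 164824274, plus strand), had 3, 7 and 9 regions at day 7 immobilized, day 7 non-immobilized and day 0. Its region 2151 bp after the start was the best-ranked of all 63 in every library, at ranks 9184, 6535 and 6704.5. The region 25.8 kb before the start was also in all libraries, at ranks 13267, 14381 and 10455. The region 12.9 kb into the gene was in all libraries too, but ranked 40062.5 at day 7 immobilized, 21753 at day 7 non-immobilized and 25320 at day 0. The region at the promoter printed above was not called in all of them: it, with the best summit 41 bp after the start, ranked 40722.5 at day 7 non-immobilized and 22470 at day 0, and was met at day 7 immobilized only in the remainder of the list, by a summit at rank 58719. Beyond the upper end of the gene, at 35.9 to 39.4 kb, 3 regions were called at day 0 alone and 1 at day 7 non-immobilized alone. Weaker summits of the immobilized list met all 3, at rank 54485.5 for one and by a single summit at rank 51134.5 for the other two. Read against that whole list, immobilized cells kept 8 of 9 day 0 regions of Dpt, against 3 of 9 at equal length.

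Clec3b (gene ID 21922, chromosome 9, 123150946 to 123157432) had 2, 1 and 6 regions in the same order. The region 2321 bp below its lower end was in all libraries, with ranks 26650, 34677.5 and 15000. All 3 regions inside the gene were called at day 0 alone, at ranks 26380, 27349 and 41343.5, as was 1 region 36 bp below the lower end. At day 7 the gene thus had called regions only beyond its ends. In the deposited immobilized list, weaker summits met 3 of these 4 regions, at ranks 58391.5, 60776.5 and 61951.

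Ly6a (gene ID 110454, chromosome 15, 74994877 to 74998031) had 2 regions at day 7 immobilized, 0 at day 7 non-immobilized and 2 at day 0. All were weak: their ranks ran from 42039.5 to 45258.5. A further 1 summit in immobilized cells at day 7 and 2 in non-immobilized cells at day 7 were nearest to Ly6a but lay in regions led by a summit nearer to Ly6i. The Ly6 genes are a family of similar copies side by side, so the placement of reads among them is uncertain and was not tested.

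Thy1 (gene ID 21838, chromosome 9, 44043384 to 44048579) had 5, 2 and 3 regions. The region at its lower end, 26 bp inside, ranked 14663 at day 7 immobilized, 15477.5 at day 7 non-immobilized and 8233 at day 0, so it was called throughout and stood highest at day 0. A region 3.43 kb below that end was in both day 7 libraries, at ranks 20454 and 29395, with no day 0 summit there. At equal list length it was the only member region shared by the day 7 libraries and absent at day 0 (1.59% of member regions, with 8.30% over all genes). In the deposited lists the Pi16 region had this pattern too. Regions 340 and 1107 bp above the upper end and 30.5 kb below the lower end were called at day 7 immobilized alone. Day 0 alone had a pair of regions 44.3 and 45.4 kb below the gene. The first, at rank 18947, had the best rank of any member region called at day 0 alone.

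Cd248 (gene ID 70445, chromosome 19, 5068078 to 5070640) kept both of its strong regions. The one 74 bp below its lower end ranked 14273.5, 10184 and 10511, and the one 1393 bp above its upper end ranked 13675, 11186 and 10354. These ranks were all better than 15970, the limit of the top band, and its other 2 regions, 1 at day 0 alone and 1 at day 7 non-immobilized alone, were weak, at ranks 38622 and 46188.

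Abca8b (gene ID 27404, chromosome 11, 109932206 to 109996274, minus strand) had the most regions, with 6, 6 and 13. At its start nothing was absent: the regions 26 bp and 613 bp after the start were called in all libraries, the first at ranks 10451.5, 15690 and 11168. All regions absent from a day 7 library lay beyond the 3′ end of the gene, where day 0 had 11 regions spread over 4.89 to 47.3 kb. Of these, 3 were in all libraries, 1 was shared with day 7 immobilized, 1 with day 7 non-immobilized, and 6 were at day 0 alone. In the deposited immobilized list, weaker summits met 2 of those 6. The next protein-coding gene on that side, 1700012B07Rik, was 104127 bp away.

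Abca8a (gene ID 217258, chromosome 11, 110025634 to 110097580, minus strand) had 1, 1 and 5 regions. Its promoter region, unlike that of Abca8b, was called at day 0 alone: the summit at position -104 from the start ranked 44675 and had no counterpart at day 7, even in the deposited lists. The regions 719 and 1541 bp after the start and the one 34.7 kb after it, at ranks 22095.5, 38121 and 29383.5, were also at day 0 alone. The region kept, near the 3′ end, ranked 28822.5 at day 7 immobilized, 45392 at day 7 non-immobilized and 32304 at day 0. Its summits had the same score in both day 7 lists as those of the Abca8b region 4.89 kb beyond that gene's 3′ end, 102236 bp away at day 7 immobilized and 102219 bp at day 7 non-immobilized. Such ties are common, since 344 summits in immobilized cells at day 7 and 619 in non-immobilized cells at day 7 had those scores. The genes are related copies, and read placement between them was not tested.

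The genes whose regions were spread over the libraries most like those of Abca8b, by Euclidean distance between region counts over the 7 patterns of presence and among 15124 other genes, were Bmper and Eln (distance 1.73 each), Ddc and Specc1 (2 each) and Adcyap1r1 (2.24). Each had 5 regions at day 0 alone, where Abca8b had 6, and 4 or 5 in all libraries, where Abca8b had 5. The likeness rests on the 3 libraries alone.

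Gli1 (gene ID 14632, chromosome 10, 127329882 to 127341579), the hedgehog effector of the group, had 3 regions in each library. Those 2907 bp below its lower end and 885 bp above its upper end were in all libraries. A strong region inside the gene ranked 9081 at day 7 non-immobilized and 7647 at day 0, with its best summit 2197 bp from the upper end. The immobilized library had a region of like strength, rank 9814, that began 181 bp further on, with its summit 1516 bp from that end. The gene body thus held a region of high rank in all libraries, and the immobilized one counts as different here because its window did not touch the others. Arhgap9 overlaps Gli1, so a region there cannot be given to Gli1 alone.

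In the hedgehog pathway the receptor Ptch1, the transducer Smo and the factors Gli2 and Gli3 act upstream of or beside Gli1. Over 16 other genes of the pathway, 41 of 64 day 0 regions (64.1%, 51.1 to 75.7) were kept in immobilized cells at day 7 and 47 (73.4%, 60.9 to 83.7) in non-immobilized cells at day 7, and the shares over all genes, 75.9% and 75.6%, lay barely outside the first interval and inside the second. More regions were called at day 7 immobilized than at day 0 for 1 of these genes and fewer for 8, and at day 7 non-immobilized for 5 and 5. Gli2, a transcription activator, had 4 regions at day 7 immobilized alone and 4 at day 0 alone in that pair, and 1 and 5 in the pair of day 7 non-immobilized and day 0. Gli3, largely a repressor, had 3 and 5, then 0 and 4, in the same pairs. Sufu, which holds Gli proteins in check, had 1 and 2, then 3 and 0.

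The 18 member regions called in all libraries had a median distance to a gene end of 2.61 kb and the 24 called at day 0 alone one of 12.8 kb, much as over all genes, where these medians were 2344 and 12438 bp. In rank they stood highest at day 0 in 12 of 18, where the background over all genes was 37.6%, and at each day 7 library in 3 of 18. Their median ranks were 25624.5 at day 7 immobilized, 27232.5 at day 7 non-immobilized and 18946.5 at day 0, whereas regions in all libraries over all genes had medians of 13941, 14035 and 13958. The marker genes' regions in all libraries thus had lower median places than those of all genes in each list.

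**Figure D4:**
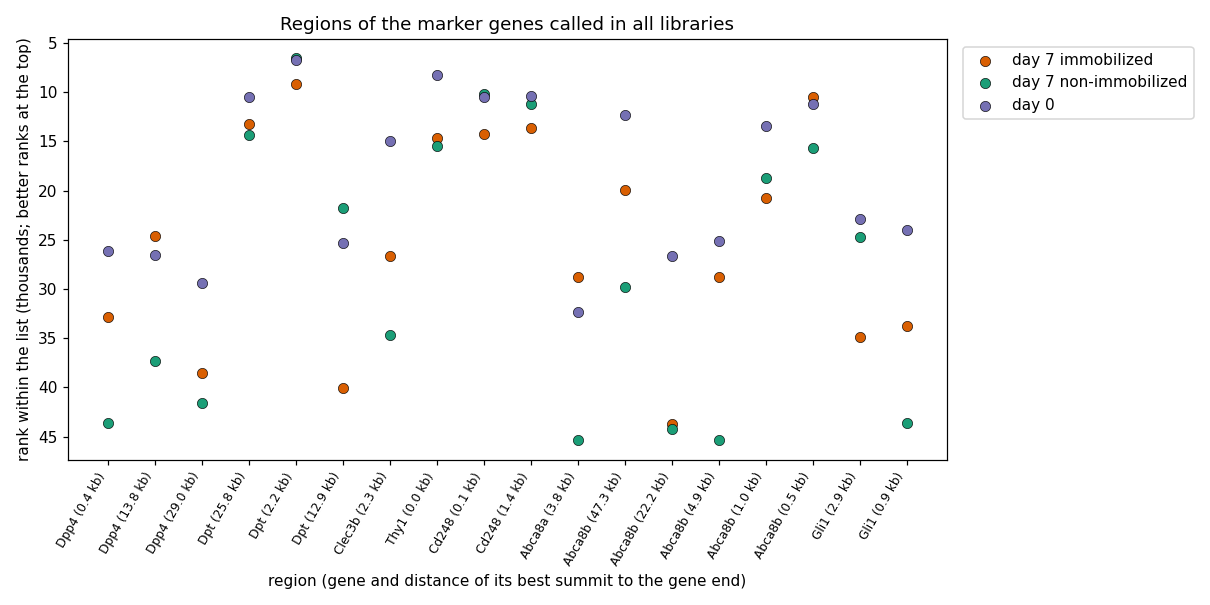
Rank, better ranks at the top, of the 18 member regions called in day 7 immobilized, day 7 non-immobilized and day 0, labelled by gene and distance to the gene end. The day 0 point is the highest in 12 of the 18.

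Shares kept were also below those of all genes close to gene ends. Within 1 kb of an end, 7 of 11 day 0 member regions were kept in immobilized cells at day 7 (63.6%, 30.8 to 89.1) and 6 of 11 in non-immobilized cells at day 7 (54.5%, 23.4 to 83.3), with 90.8% and 91.9% over all genes. Farther out, 16 of 40 (40%, 24.9 to 56.7) were kept in each, with 68.5% and 67.6% over all genes. The regions near an end are few, and their intervals are wide.

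A wider list of 36 other genes of resting fibroblast progenitors was counted in the same way, among them Pdgfra, a receptor of mesenchymal cells. It kept 125 of 198 day 0 regions (63.1%, 56.0 to 69.9) in immobilized cells at day 7 and 126 (63.6%, 56.5 to 70.3) in non-immobilized cells at day 7. Over all genes the shares were 75.9% and 75.6%. Had each band of rank kept the share of all genes, this list would have kept 70.4% and 69.8%. Of the genes in the wider list, 5 had more regions at day 7 immobilized and 16 had more at day 0, and in the other pair these counts were 6 and 17. Ebf2, a transcription factor of mesenchymal cells, had 0 regions at day 7 alone, 10 at day 0 alone and 4 in both, in each of the pairs. Scara5, a ferritin receptor of fibroblasts, had 0 regions at day 7 immobilized alone, 6 at day 0 alone and 7 in both. Creb5, another transcription factor, had 0, 4 and 4 in the pair of day 7 non-immobilized and day 0, and Fbn1, the microfibril protein fibrillin-1, had 2, 8 and 6. Ly6c1 went the other way, with 2 regions at day 7 immobilized and none at day 0.

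Genes of activated fibroblasts were looked at in the same way. Over 29 autosomal genes of 30, 92 of 124 day 0 regions (74.2%, 65.6 to 81.6) were kept in immobilized cells at day 7 and 94 (75.8%, 67.3 to 83.0) in non-immobilized cells at day 7, with 75.9% and 75.6% over all genes. Lox, which crosslinks collagen, had 3 regions at day 7 immobilized alone and 0 at day 0 alone, and 2 and 0 in the other pair. Adam12, a metalloprotease, leaned to day 0 instead, with 0 and 5, and 1 and 4.

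**Figure D5:**
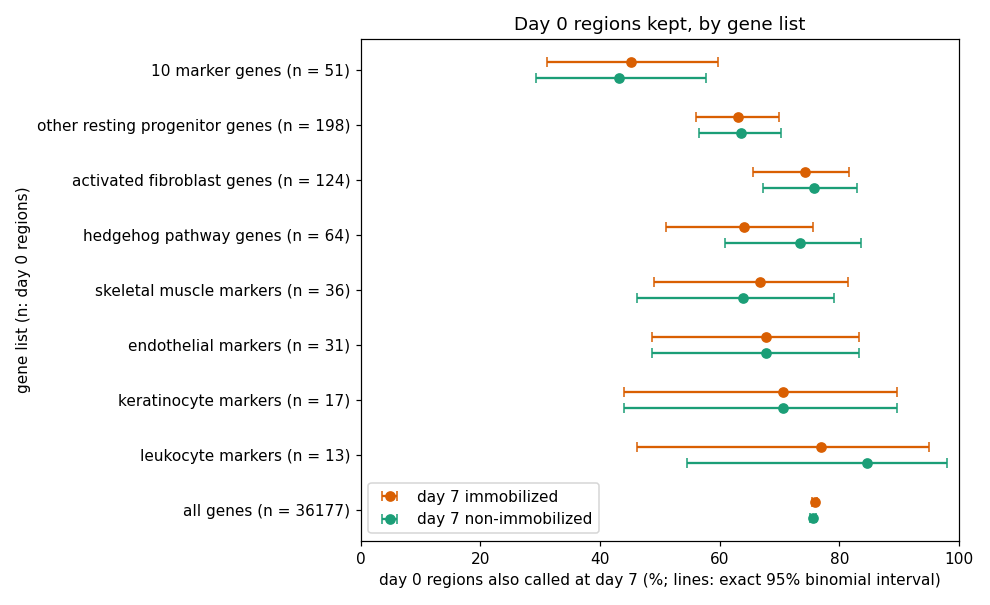
Percentage of day 0 regions also called at day 7 immobilized and day 7 non-immobilized, for the 10 genes, 7 other gene lists and all genes, with exact 95% binomial intervals. The 10 genes had the lowest shares in both libraries, 45.1% and 43.1%, and all genes together had 75.9% and 75.6%.

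Markers of other cell types also differed between the libraries. Regions near 12 endothelial markers numbered 44 at day 7 immobilized, 70 at day 7 non-immobilized and 31 at day 0, with Robo4, Sox17 and Sox18 at 0 at day 0. Regions near 12 keratinocyte markers numbered 58, 18 and 17, with Krt5, Krt14, Krt15, Krt17 and Dsg3 at 0 at day 7 non-immobilized and at day 0. Regions near 12 leukocyte markers numbered 13, 16 and 13, with Itgam, Adgre1, Cd3e, Ly6g and Lyz2 at 0 throughout. Regions near 10 skeletal muscle markers numbered 27, 26 and 36. Of the day 0 regions of these lists, day 7 immobilized and day 7 non-immobilized kept 21 and 21 of 31 for endothelial, 12 and 12 of 17 for keratinocyte, 10 and 11 of 13 for leukocyte, and 24 and 23 of 36 for muscle markers. Over all genes the shares were 75.9% and 75.6%. Muscle markers kept 66.7% (49.0 to 81.4) and 63.9% (46.2 to 79.2). At the share of all genes in each band they would have kept 74.4% and 73.9%. The endothelial, keratinocyte and leukocyte markers each kept more than the value found in that way. The margin was small for endothelial and keratinocyte markers, with 21 against 20.1 and 12 against 11.7 regions at day 7 immobilized. A lower share kept was thus not seen in resting fibroblast genes alone, though the muscle intervals include the shares of all genes. The part of such cells in the values of the 10 genes was not tested.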

How the data were processed

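ATAC-seq summit lists of 3 libraries, 1 per group by the labels, were used. Library preparation followed Omni-ATAC, as the labels' protocols state. Per the submitters' processing notes, the build was mm10 and the tools included MACS2 2.1.2, Bowtie2 2.3.4.1, edgeR 3.26.5, bedtools 2.28.0, SAMtools 1.2, Picard, cutadapt, Trim Galore and FastQC. Whether reads were shifted or filtered, and the peak cutoff, is not given in the sources used here. Column 5 of the deposited lists holds a −log10 value in the MACS2 layout, of either p or q, which is not stated. It served here for ranks inside each list, where tied scores share the mean rank; medians over regions break ties by order. The score is the authors' own value for each peak, and peaks were called per library, as the deposited names show. In the deposited run statistics, reads per file are given as counts, alignment as a percent and duplicates as a fraction: 43.4%, 42.0% and 60.2% of reads were duplicates and 92.5%, 89.9% and 90.9% aligned, for day 7 immobilized, day 7 non-immobilized and day 0. The lowest scores kept after reduction were 6.61, 1.33 and 4.00.

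Each region went to the gene with the nearest end to its best-ranked summit, from RefSeq genes of GRCm38.p6, which give ends but no exons, so exon and intron are not stated. The summit farthest from a member within the 50 kb limit lay at 47.3 kb, and the next beyond it at 54.0 kb. Positions count from 1. Members and lists were chosen with earlier results of these data known. The 10 members are all named. Other genes were named from the lists by the largest difference of the counts in 1 library over the square root of their sum, up to 4 per pair, and the 5 genes most like the member with the most regions; Pdgfra, Ptch1 and Smo were named outside that rule as background, as were marker genes at 0. Region building recovered 100% of 5000 simulated patterns, which were set far apart with the summits of each close together. This checks the code alone and does not cover regions as close as those inside Gli1. Alternatives were other list lengths, widths, distances and assignments. Software was Biopython 1.88, matplotlib 3.10.9, scipy 1.17.1, pandas 2.3.3 and numpy 2.4.6 under Python 3.11.15.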

Additional observations from a re-analysis of the deposited data

Results flagged for a closer look

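Thy1 went opposite ways in the 2 day 7 libraries relative to day 0. At day 7 immobilized it had 2 more regions called only there than called only at day 0, a difference of 2, and at day 7 non-immobilized the difference was -1. The difference between the libraries was not tested, both values share the day 0 library, and each rests on 1 library.

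Outside the lists reduced to equal length, 13 of the day 0 regions that the 10 genes lacked at day 7 immobilized were met by weaker summits of that library's deposited list. A summit met a region where its window overlapped it, and in 12 of the 13 the summit lay in the region. The remaining one is a Dpt region whose neighbour, also among the 13, holds the same summit. The longer list raised the share of day 0 regions kept over all genes too, from 75.9% to 85.0%. For the 10 genes it rose from 45.1% to 70.6%. No control sample was at hand for the weaker part of the list.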

How the results depend on the processing

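No paired analysis was possible because each group has 1 library, and leaving out a replicate was not possible for the same reason. Over 11 settings other than the main one and 8 results, 72 of 82 values stayed inside the interval of the value reported, or within 1.5 times of the count reported, and 10 moved. With lists as deposited, day 7 immobilized had 48 regions, where day 0 had 50. Day 7 immobilized then kept 70% of day 0 regions (70.6% with only the day 0 list reduced, a setting chosen after seeing the data). It held 46.4% of the regions in 1 library only against day 0 and 89.3% against day 7 non-immobilized. No share over all genes is set beside these values. The immobilized list is then the longest, with 67404 summits against 47912 at day 7 non-immobilized and 51722 at day 0. How far these values belong to the 10 genes was not tested. With the best 23956 summits of each list, the regions numbered 12 at day 7 immobilized, 11 at day 7 non-immobilized and 16 at day 0, since fewer summits were used. Within 10 kb of a gene end they numbered 20 at day 7 immobilized and 26 at day 0, since fewer regions qualified. In each setting the share kept was below that of all genes. Whether it passed 50% depended on the setting: with windows of 500 bp on each side it was 54.8% in immobilized cells and 50% in non-immobilized cells, with the best 23956 summits 50% and 56.2%, and within 10 kb 53.8% and 57.7%. In the last pair of settings the non-immobilized share was the higher, whereas the values reported are 45.1% and 43.1%. Over the settings, the share kept ran from 40% to 70.6% at day 7 immobilized and from 40% to 57.7% at day 7 non-immobilized, and all genes kept at least 67.6% in each. Counts this small and 1 library per group limit every value.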
